A study of Mus musculus with 10 samples.

Results

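The genes of BMP and TGF-beta signaling and the Id genes were followed across 5 cell types of the mouse cochlea. Their members were all gene symbols for BMP and GDF ligands, TGF-beta and activin subunits, their receptors, Smads, 4 secreted antagonists and the Id genes, which gave 59 of the 34590 symbols in the count tables. 49 of the 59 had at least 1 count in some library, 39 passed the filter on low counts and were tested, and 10 had no count in any library. The pattern also took in 4 symbols that are not ligands, receptors or Smads (Bmp1, a protease, Bmp2k, a kinase, Tgfb1i1 and Tgfbrap1).

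BMPs, GDFs, TGF-betas and activins are secreted dimers that bind pairs of type I and type II receptor kinases. The receptors phosphorylate Smad proteins, which join Smad4 and act on transcription, and Smad6 and Smad7 dampen the response. The Id genes are classic targets of the BMP branch. Id proteins lack a DNA binding domain and hold E proteins away from basic helix-loop-helix (bHLH) factors such as Atoh1, the factor that specifies hair cells (HCs), and BMPs and Id proteins are known to act in the developing sensory epithelium.

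Each cell type was represented by 2 libraries of handpicked fluorescent cells. Supporting cells (SCs) came from Fgfr3iCreER+ mice with the Rosa26-CAG-loxP-stop-loxP-tdTomato+ reporter at postnatal days 27 and 26 (P27 and P26). Converted hair cells (cHCs) carried the same alleles together with Atoh1-HA+ and alpha9 AChR-EGFP+, were picked for both colors at P33, and express ectopic Atoh1. Both of these lines received tamoxifen in the second postnatal week, and the SC mice carried neither the Atoh1-HA nor the EGFP transgene. Outer hair cells (OHCs) were labelled prestin-YFP YFP/+, at P7 and at days 21 and 22, the older pair being called OHCs (P22) here. The study's own account gives a PrestinCreERT2 driver with tdTomato, and tamoxifen in the first postnatal week, for the P7 cells, so their reporter line is uncertain. Inner hair cells (IHCs) came from Pval-Cre+ mice with a Rosa26 tdTomato reporter at days 74 and 75, which their titles call Ai9 while the study lists Ai14. The titles mark the OHC (P22) pair m21 and f22 and the IHC pair m74 and m75. If these letters stand for sex, which is not stated, the OHC (P22) libraries differ in sex as well as in day. Fgfr3-iCreER recombines in Deiters' and pillar cells, and Pval-Cre labels IHCs strongly and OHCs weakly, so age, line and cell type change together in most comparisons. The labels do not tie a library to its animals, so the p-values measure only the spread between these libraries. In bulk samples, fewer cells of a type and less RNA per cell cannot be told apart.

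4 of the 10 sample records carry the table of another library. Each table was therefore assigned by the library title it bears, a choice checked against the per-library levels the study lists, and the calls below rest on it: with the tables as attached to the records, no member passed the test in any comparison. Pairs of values follow the order SC libraries 12 and 11, cHC libraries 13 and 16, OHC (P7) libraries 15 and 14, the OHC (P22) libraries of days 21 and 22, and the IHC libraries of days 74 and 75. The SC, cHC and OHC (P7) libraries carry 1 series of numbers and the OHC (P22) and IHC libraries another, so that cell type cannot be told apart from the series in a comparison across them. Within a series lie cHCs against SCs, OHCs (P7) against SCs, OHCs (P7) against cHCs, and IHCs against OHCs (P22). In the first series, libraries 12, 13 and 15 share a form of title that libraries 11, 16 and 14 do not, and this form was tried as a term in a fit of SCs, cHCs and OHCs (P7).

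The libraries held 15016129 to 40518766 counts on genes, and 3 counts, the level that a count of 0 allows, correspond to 0.0740 to 0.200 in counts-per-million units (CPM) before TMM scaling. Intervals and such limits cover counting error only. Levels are CPM after TMM scaling, and levels are compared between genes only per kb of exon. HC markers (6 genes) summed to 359 to 361 CPM in SCs and to 3556 to 8978 CPM in the other cell types. OHC markers (3 genes) summed to at least 4737 CPM in each OHC library. They summed to 93.7 to 250 CPM in IHCs, 43.4 to 299.9 CPM in SCs and 47.9 to 165 CPM in cHCs. The 3 genes did not move together between SCs and cHCs. Ikzf2 made up 296 CPM of the sum in SC library 11. Slc26a5, which encodes prestin, did not exceed 0.755 CPM in either SC library. Its level was 97.6 CPM in cHC library 13 and 23.4 CPM in library 16, and edgeR called it higher in cHCs. Ocm stayed at or below 4.98 CPM in both cell types, and neither Ocm nor Ikzf2 was called between them. Slc17a8, the IHC marker, was at 1763 to 1907 CPM in IHCs, 26.3 to 75.5 CPM in OHCs (P7) and 35.4 to 52.55 CPM in OHCs (P22). SC markers (8 genes) summed to 1100 to 1780 CPM in SCs, 393 to 697 in cHCs, 59.3 to 199.5 in OHCs (P7), 3.16 to 14.9 in OHCs (P22), where Sox2 was at 0 in both libraries, and 914 to 1101 in IHCs. In cHCs this list was led by Prox1 at 247 and 293.5 CPM, which was lower in SCs, at 14.7 and 53.7 CPM. In IHCs it was led by Gjb2 at 611 and 468 CPM, while Sox2 was at 14.6 and 8.80 CPM. Other lists had summed maxima of 453 CPM for spiral ganglion neuron genes in IHCs and 235 CPM for mesenchyme in OHCs (P7). The latter came from library 15, with Col1a2 at 223 CPM there and at 0 in library 14. Maxima were 85.9 CPM for Schwann and glial genes and 24.5 CPM for erythroid genes, both in IHCs. Macrophage, endothelial and strial genes summed to at most 9.07 CPM. In OHCs (P22), neuron genes (72.9 to 117 CPM) and glial genes (19.5 to 80.1 CPM) summed to more than the SC markers.

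The 3 Id genes with an entry in the promoter table, Id2, Id3 and Id4, are shown, and Id1 had no entry. Each line gives the 250 bases before the start of the gene, 5′ to 3′, from the RefSeq annotation of GRCm38.p6, in which 41 of the 59 members matched. Capitals mark GGCGCC, a BMP-type Smad motif that reads alike on both strands, and GTCTG or CAGAC, the Smad box on either strand.
Id2 promoter, chr12:25096093-25096342, minus strand: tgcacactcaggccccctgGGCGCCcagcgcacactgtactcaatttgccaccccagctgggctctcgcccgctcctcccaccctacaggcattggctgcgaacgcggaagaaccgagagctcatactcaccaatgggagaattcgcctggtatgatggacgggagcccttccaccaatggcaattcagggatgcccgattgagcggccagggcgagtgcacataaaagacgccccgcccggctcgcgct
Id3 promoter, chr4:136143572-136143821, plus strand: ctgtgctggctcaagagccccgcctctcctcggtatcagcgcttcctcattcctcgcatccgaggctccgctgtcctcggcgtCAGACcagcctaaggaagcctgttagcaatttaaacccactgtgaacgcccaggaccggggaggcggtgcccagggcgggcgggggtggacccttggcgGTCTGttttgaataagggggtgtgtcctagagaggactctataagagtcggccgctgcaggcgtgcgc
Id4 promoter, chr13:48260866-48261115, plus strand: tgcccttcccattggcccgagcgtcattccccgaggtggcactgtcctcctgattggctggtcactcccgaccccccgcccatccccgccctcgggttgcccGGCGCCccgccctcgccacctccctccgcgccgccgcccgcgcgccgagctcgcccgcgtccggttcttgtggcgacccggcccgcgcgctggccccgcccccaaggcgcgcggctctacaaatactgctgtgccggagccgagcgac
Id2 had 1 GGCGCC, at 231 bases before the start, and 1 E-box (CANNTG) at 196 bases, Id3 had 2 Smad boxes, at 167 and 68 bases, and Id4 had 1 GGCGCC at 148 bases. GGCGCC was found in 9.59% of 32851 promoters of the same length, the Smad box in 42.2% and the E-box in 66.2%, against 12, 19 and 20 of the 41 members. The percentages count each promoter, whereas a member counted once if any of its promoters held the motif, so these are unlike measures. Whether these motifs bear on the levels of the Id genes was not tested. These are letter matches and no binding was measured.

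Id1, Id2 and Id3 were high in SCs and fell to 4.34 CPM or less in OHCs (P22), whereas Id4, at 31.5 to 119 CPM over all libraries, did not pass the test. In the joint edgeR test of all 5 cell types, 7 of the 39 tested members (17.9%) had an adjusted p under 0.05, against 7.81% of all 16891 tested genes, and 3 of these 7 were Id genes. Members that passed the filter on low counts partly did so through the group where they were high, so these shares are a description.

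Id1 (chromosome 2, 152561987 to 152563146, plus strand, mm9) was at 197 and 102 CPM in SCs and at 55.5 and 30.2 CPM in cHCs. It was at 0.201 and 0.736 CPM in OHCs (P7), at 0.176 and 0.126 CPM in OHCs (P22), and at 54.1 and 69.5 CPM in IHCs. Both OHC ages lay far below the other 3 cell types with no overlap, and the IHC and cHC values met. Against SCs, Id1 was lower by a log2 fold change of -8.25 ± 1.09 (approximate SE) in OHCs (P7) (edgeR adjusted p = 0.00189). In OHCs (P22) Id1 was lower by -9.95 ± 1.20 (edgeR adjusted p = 0.000694). Only 5 counts in all stood behind the OHC (P22) level, which put the SC level 967-fold higher with a 95% counting interval of 414 to 2977. Id1 was the only member called between OHCs (P7) and cHCs, with a log2 fold change of -6.44 ± 1.01 (edgeR adjusted p = 0.0281), and this call was lost in 6 of 17 alternative settings, among them without OHC (P7) library 15 (edgeR adjusted p = 0.160), without library 14 (edgeR adjusted p = 0.0880) and with the title form as a term (edgeR adjusted p = 0.0868). The cHC value was -1.80 ± 0.82 on the log2 scale relative to SCs, with groups that did not overlap but with an edgeR adjusted p of 0.331.

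Id2 (chromosome 12, 25778666 to 25780957, minus strand) was at 247.5 CPM in both SC libraries, at 161 and 111 CPM in cHCs and at 33.7 and 16.2 CPM in OHCs (P7). It was at 0.265 and 4.34 CPM in OHCs (P22) and at 35.3 and 78.5 CPM in IHCs. SC, cHC, OHC (P7) and OHC (P22) levels lay in that order without overlap, and the IHC libraries lay above both OHC (P7) libraries. The log2 fold change from SCs to OHCs (P22) was -6.71 ± 1.20 (edgeR adjusted p = 0.00647) and from cHCs to OHCs (P22) -5.85 ± 1.16 (edgeR adjusted p = 0.0207). The OHC (P7) value, -3.31 ± 1.02 against SCs, did not pass the test (edgeR adjusted p = 0.118).

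Id3 (chromosome 4, 135699412 to 135701670, plus strand) was at 173 and 42.5 CPM in SCs, 47.2 and 26.3 CPM in cHCs and 84.6 and 106 CPM in IHCs. It was at 7.59 and 3.98 CPM in OHCs (P7) and at 0.529 and 0.505 CPM in OHCs (P22). The SC libraries differed from each other more than the IHC libraries did, and SCs overlapped with cHCs and with IHCs. Relative to SCs, Id3 was lower in OHCs (P7) by -4.22 ± 0.94 (edgeR adjusted p = 0.0349) and in OHCs (P22) by -7.69 ± 1.12 (edgeR adjusted p = 0.00210) on the log2 scale. The OHC (P7) call was lost in 7 of 17 settings. It was lost without SC library 12, where the log2 fold change was -2.88 (edgeR adjusted p = 0.225), without OHC (P7) library 15 (edgeR adjusted p = 0.135) and without library 14 (edgeR adjusted p = 0.204). With the title form as a term, Id3 had a log2 fold change of -4.01 (edgeR adjusted p = 0.0522).

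Id4 (chromosome 13, 48356796 to 48359405, plus strand) was at 119 and 107 CPM in SCs, 40.1 and 43.0 CPM in cHCs, 70.2 and 84.5 CPM in OHCs (P7), 33.7 and 58.0 CPM in OHCs (P22) and 31.5 and 81.2 CPM in IHCs. The SC libraries were the highest pair, and OHCs (P22) overlapped with cHCs and IHCs. Its difference between OHCs (P22) and SCs was -1.30 ± 0.69 on the log2 scale (edgeR adjusted p = 0.254), and it passed the test in none of the 8 comparisons (joint edgeR adjusted p = 0.433). Of its exon length, 10.3% is shared with a transcript on the opposite strand, A330033J07Rik, and the strand setting of the counting is not given in the sources used here, so reads of the pair cannot be told apart there.

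**Figure D1:**
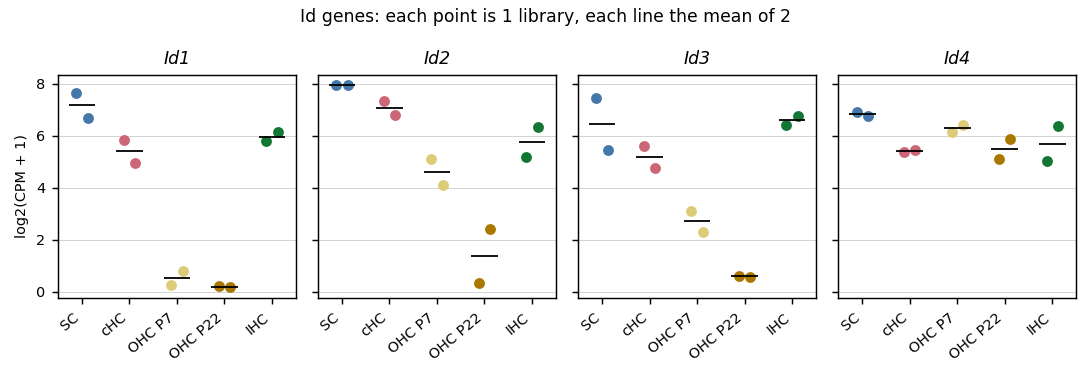
Levels of Id1, Id2, Id3 and Id4 on a log2(CPM + 1) axis by cell type; each point is 1 library and each line the mean of 2. The OHC (P22) points of Id1 and Id3 lie near 0, while those of Id4 lie at 33.7 and 58.0 CPM.

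The make-up of the Id transcripts changed with cell type. Summed over the 4 genes, the level was 533 and 371 CPM per kb in SCs, 225 and 154 in cHCs, 73.2 and 66.5 in OHCs (P7), 20.9 and 38.7 in OHCs (P22), and 141 and 230 in IHCs. Id2 was the largest part in SCs (36.5% and 52.5%) and in cHCs (56.3% and 56.8%). Id4 was the largest part in OHCs (P7), at 57.7% and 76.5%, and in OHCs (P22), at 96.9% and 90.2%. In IHCs no Id gene exceeded 33.6% in either library.

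Across the HC types, Id1 and Id3 were higher in IHCs than in OHCs (P22), with log2 fold changes of 8.67 ± 1.15 (edgeR adjusted p = 0.00683) and 7.52 ± 1.11 (edgeR adjusted p = 0.0105). The Id3 call was lost with limma-voom (adjusted p = 0.0661) and without the OHC (P22) library of day 21 (log2 fold change 7.52). Id2 was 4.59 ± 1.09 higher on the same scale and did not pass (edgeR adjusted p = 0.0722). SC markers moved the same way, at 914 to 1101 CPM in IHCs against 3.16 to 14.9 CPM in OHCs (P22), and their part in the result was not tested. Relative to cHCs, Id1 and Id3 were lower in OHCs (P22), by -8.14 ± 1.12 (edgeR adjusted p = 0.00560) and -6.14 ± 1.05 (edgeR adjusted p = 0.0117). The latter call was lost with limma-voom (adjusted p = 0.0922) and in a fit of these 2 cell types alone (edgeR adjusted p = 0.0811). It was also lost without the day 21 library (log2 fold change -6.215). The cHCs also held 393 to 697 CPM of SC markers, of which Prox1, lower in SCs, made up 247 and 293.5 CPM. The part of these markers in the difference was not tested.

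Of the ligands, Bmp3 rose from SCs to cHCs and to both OHC ages, while Bmp6, Bmp7, Gdf6, Inhba and Tgfb2 fell from SCs to OHCs (P22), and Bmp8b stood out in IHCs. Against SCs, 9 of 39 tested members (23.1%) passed the test in OHCs (P22), against 8.02% of all tested genes. 8 of the 9 (20.5% of the tested members) were lower in OHCs (P22), against 4.0% of all genes called in that direction. In 20 members (51.3%) both OHC (P22) libraries lay below both SC libraries, against 25.3% of all tested genes. The median log2 fold change of the tested members was -1.79, beside 0 over all tested genes. SC markers moved with these genes (above), and their part was not tested.

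Bmp3 (chromosome 5, 99283458 to 99309979, plus strand) encodes an atypical BMP known to oppose other BMPs. It had 0 and 0.239 CPM in SCs, 9.74 and 75.8 CPM in cHCs, 50.02 and 71.4 CPM in OHCs (P7), 436 and 277 CPM in OHCs (P22) and 0.236 and 0.103 CPM in IHCs. Every cHC and OHC library lay above every SC and IHC library, and the cHC libraries differed widely from each other. Bmp3 was the only member called between cHCs and SCs, 1 of 39 (2.56%) against 1.84% of all tested genes, with a log2 fold change of 8.29 ± 1.43 (edgeR adjusted p = 0.0121). In a fit of these 2 cell types alone it was 8.402, with an edgeR adjusted p of 0.164. OHCs (P7) exceeded SCs by 8.80 ± 1.46 (edgeR adjusted p = 0.00760) and OHCs (P22) by 11.35 ± 1.60 (edgeR adjusted p = 0.00174). With 9 counts in SCs, the ratios to SCs were 342 (95% counting interval 179.8 to 748) in cHCs, 436 (229 to 954.5) in OHCs (P7) and 2195 (1156 to 4801) in OHCs (P22).

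In OHCs (P7) against SCs, the called members were Bmp3, Id1 and Id3, 3 of 39 (7.69%) against 3.41% of all tested genes. Between IHCs and OHCs (P22), Bmp3 was lower in IHCs by -11 ± 1.57 on the log2 scale (edgeR adjusted p = 0.00920). This comparison lay within 1 number series, and 10 counts in IHCs put the OHC (P22) level 1930-fold higher (95% counting interval 1049 to 4027).

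Bmp6 (chromosome 13, 38436995 to 38592183, plus strand) encodes a BMP of the Bmp5 and Bmp7 subgroup. Its levels were 375 and 211 CPM in SCs, 65.5 and 12.3 CPM in cHCs and 7.79 and 70.6 CPM in OHCs (P7). They were 0.0882 and 0 CPM in OHCs (P22) and 8.86 and 25.3 CPM in IHCs. SC libraries were the highest and OHC (P22) libraries the lowest, and the cHC, OHC (P7) and IHC ranges met. OHCs (P22) held 1 count in all, so the SC level was 9566 times as high with a wide 95% counting interval, 1717 to 3.779e+05. Bmp6 passed the test in OHCs (P22) against SCs (edgeR adjusted p = 0.00234), cHCs (edgeR adjusted p = 0.0137) and OHCs (P7) (edgeR adjusted p = 0.0441). It was the only member called between the OHC ages, 1 of 39 (2.56%) against 0.551% of all tested genes, and that call was lost without either OHC (P22) library (edgeR adjusted p = 0.135 without the day 21 library and 0.0768 without the day 22 library). The OHC ages also lie in different number series and may come from different reporter lines, which cannot be told apart from age.

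Gdf6 (chromosome 4, 9771519 to 9789492, plus strand), a ligand known from joints and the eye, was at 321.5 and 127 CPM in SCs, 24.2 and 21.4 CPM in cHCs, 2.01 and 67.8 CPM in OHCs (P7), 0.0882 and 0 CPM in OHCs (P22) and 45.4 and 26.5 CPM in IHCs. As for Bmp6, SCs were the highest and OHCs (P22) the lowest, at 1 count in all, and the OHC (P7) libraries lay far apart. OHCs (P22) were lower than SCs (edgeR adjusted p = 0.00433; ratio 7007, 95% counting interval 1257 to 2.768e+05) and lower than cHCs (edgeR adjusted p = 0.0252). The cHC call was lost without the day 21 library (edgeR adjusted p = 0.0777) and without the day 22 library (edgeR adjusted p = 0.0843).

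Bmp6 and Gdf6 were higher in IHCs than in OHCs (P22), with 597-fold (95% counting interval 107 to 2.36e+04) and 1264-fold (227 to 4.995e+04) ratios. Their edgeR adjusted p-values were 0.0344 and 0.0340. Both calls were lost without the day 21 library (edgeR adjusted p = 0.104 and 0.107) and without the day 22 library (edgeR adjusted p = 0.0912 and 0.0873). Between IHCs and OHCs (P22), 5 of 39 members (12.8%) were called, against 1.46% of all tested genes, namely Bmp3, Bmp6, Gdf6, Id1 and Id3. Between OHCs (P22) and cHCs, 5 of 39 (12.8%) were called, against 3.18%, namely Bmp6, Gdf6, Id1, Id2 and Id3. Between OHCs (P7) and cHCs, 1 of 39 (2.56%) was called, against 0.343%.

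Tgfb2 (chromosome 1, 188447065 to 188529871, minus strand), 1 of the 3 TGF-beta ligands, was at 769 and 364 CPM in SCs, 249.8 and 31.8 CPM in cHCs and 120 and 112 CPM in OHCs (P7). It was at 0.353 and 9.43 CPM in OHCs (P22) and at 45.9 and 79.5 CPM in IHCs. OHCs (P22) lay below all other libraries. The log2 fold change against SCs was -6.83 ± 1.45 (edgeR adjusted p = 0.0159), and limma-voom gave an adjusted p of 0.0658. Inhba (chromosome 13, 16103684 to 16119044, plus strand), the subunit of activin A, was at 159.8 and 78.7 CPM in SCs, 26.9 and 2.26 CPM in cHCs, 0.0671 and 9.28 CPM in OHCs (P7), 0.0882 and 0.0421 CPM in OHCs (P22) and 17.9 and 9.35 CPM in IHCs. SCs were above all other libraries, and OHCs (P7) overlapped with OHCs (P22). The OHC (P22) call against SCs (edgeR adjusted p = 0.0206) rested on 2 counts, with a ratio of 1913 (95% counting interval 529 to 1.58e+04). It was lost without the day 21 library (edgeR adjusted p = 0.0926) and without the day 22 library (edgeR adjusted p = 0.0796).

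Bmp7 (chromosome 2, 172693513 to 172765822, minus strand) was at 60.4 and 114 CPM in SCs, 73.0 and 141 CPM in cHCs, 38.2 and 65.1 CPM in OHCs (P7), 0.529 and 7.08 CPM in OHCs (P22) and 10.48 and 10.1 CPM in IHCs. SCs overlapped with cHCs and with OHCs (P7), while both OHC (P7) libraries lay below both cHC libraries. IHCs and OHCs (P22) were lower than these cell types without overlap. The difference between OHCs (P22) and SCs was -4.51 ± 1.15 on the log2 scale (edgeR adjusted p = 0.0367), and it was lost without SC library 11 (edgeR adjusted p = 0.0869) and without the OHC (P22) library of day 21 (edgeR adjusted p = 0.0787). The IHC value against SCs, -3.09 ± 1.08, did not pass (edgeR adjusted p = 0.187).

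Bmp8b (chromosome 4, 122782408 to 122809342, plus strand) was at 52.1 and 83.9 CPM in IHCs and at 19.1 and 1.27 CPM in SCs. It was at 1.87 and 0.279 CPM in cHCs, 0.0671 and 0 CPM in OHCs (P7), and 0.0882 and 0.211 CPM in OHCs (P22). Both IHC libraries lay above every other library, and the SC pair was uneven. Bmp8b passed the joint test (edgeR adjusted p = 0.0204), but not the comparison of IHCs with OHCs (P22) (edgeR adjusted p = 0.0859) or with SCs (edgeR adjusted p = 0.397). Limma-voom and DESeq2 called it between IHCs and OHCs (P22), as did edgeR on these 2 cell types alone or without the low-count filter. None of these settings called it between IHCs and SCs. It was not called with the tables as attached. Shares of all tested genes in these settings are not given here. Bmp8a, a near-identical gene 180.5 kb away, was at 0 to 2.27 CPM, and how reads were split between the pair is uncertain.

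**Figure D2:**
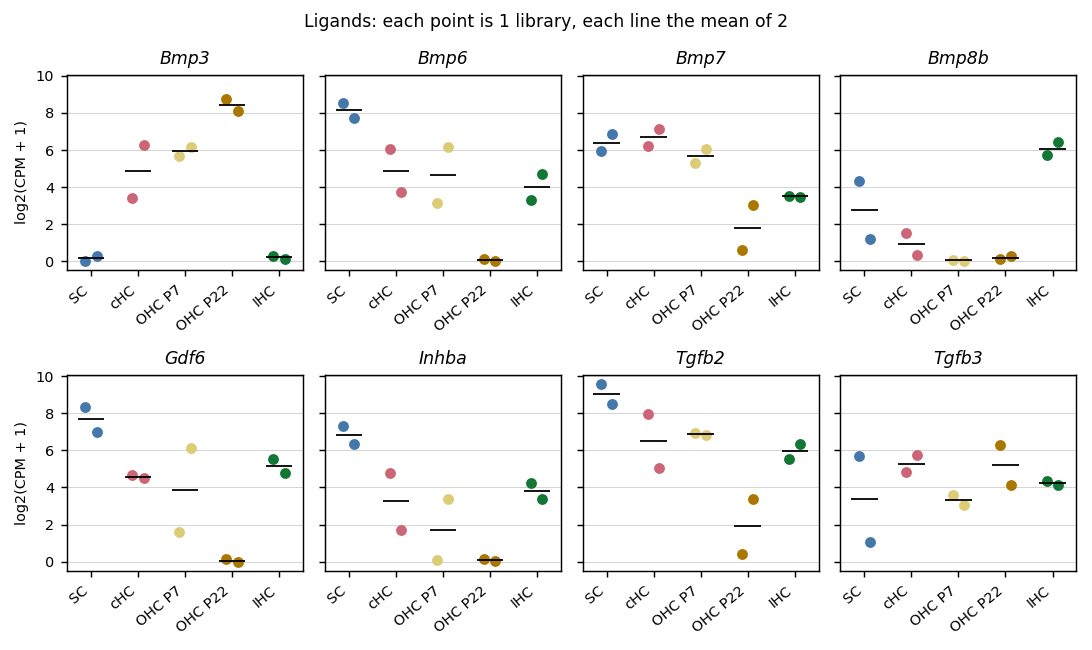
Levels of 8 ligand genes on a log2(CPM + 1) axis by cell type; each point is 1 library and each line the mean of 2. Bmp3 is highest in OHCs (P22), at 436 and 277 CPM, Bmp8b is highest in IHCs, and Bmp6, Gdf6 and Inhba lie near 0 in OHCs (P22).

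Tgfb3 showed no such pattern, at 51.5 and 1.06 CPM in SCs, 27.7 and 52.0 CPM in cHCs, 10.9 and 7.28 CPM in OHCs (P7), 77.9 and 16.7 CPM in OHCs (P22) and 19.5 and 16.6 CPM in IHCs (joint edgeR adjusted p = 0.687). The SC pair alone spanned nearly the whole range. Gdf11 was at 23.8 and 23.3 CPM in SCs, 5.19 and 22.8 CPM in cHCs, 10.7 and 2.97 CPM in OHCs (P7), 3.97 and 13.7 CPM in OHCs (P22) and 0.0674 and 3.75 CPM in IHCs, again without a call. Gdf9, better known from the oocyte, was at 2.75 CPM in OHC (P7) library 15, at 0.463 CPM in the OHC (P22) library of day 22 and at 0 elsewhere. Bmp5 (31.1 CPM) was seen in SC library 12 and at 0.134 CPM in OHC (P7) library 15, and 46.7% of its exon length is shared with the opposite-strand gene Gm16662. Bmp4 reached 3.27 CPM and Tgfb1 4.78 CPM, each in the IHC library of day 75. Bmp2, Gdf7, Gdf10, Gdf15 and Inhbb stayed at or below 1.95 CPM and were not tested. Bmp10, Bmp15, Gdf1, Gdf2, Gdf3, Gdf5, Inhbc and Inhbe had no count, which says nothing for Gdf1, since all of its exons lie within Lass1 on the same strand.

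Expressed per kb, 1 ligand took most of the ligand transcripts in OHCs (P22). Over the 27 ligand genes the summed level was 485 and 245 CPM per kb in SCs, 122 and 98.2 in cHCs, 61.5 and 109 in OHCs (P7), 164 and 101 in OHCs (P22), and 55.9 and 69.2 in IHCs. Bmp3 made up 85.2% and 87.8% of it in OHCs (P22), 26.2% and 21.1% in OHCs (P7), 2.57% and 24.8% in cHCs, and at most 0.136% in the SC and IHC libraries. In SCs the sum was led by Tgfb2 (32.8% and 30.7%), followed by Bmp6 (21.6% and 24.1%), Gdf6 (18.8% and 14.7%) and Inhba (16.6% and 16.3%). Bmp8b came first in IHCs (24.0% and 31.3%). The cHC libraries did not share a first ligand, which was Tgfb2 (42.4%) in library 13 and Bmp7 (35.8%) in library 16.

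**Figure D3:**
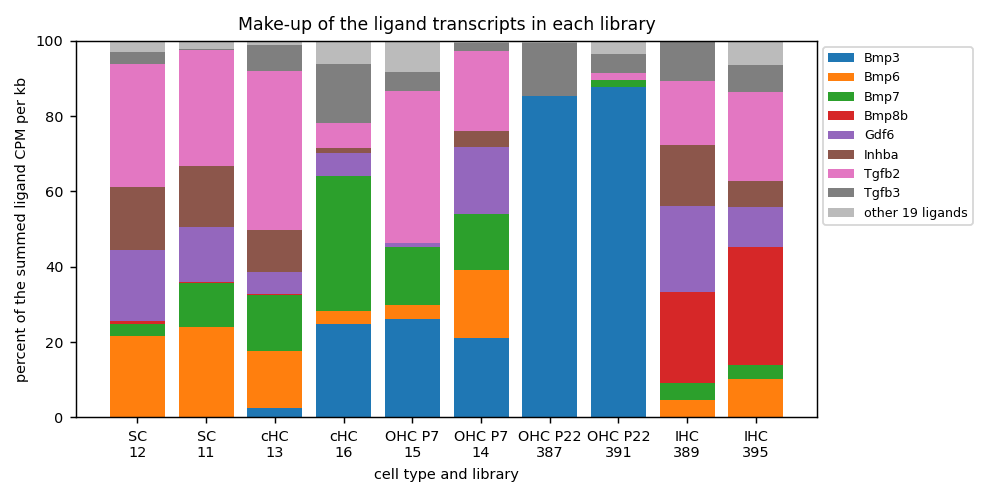
Stacked bars of the percent of the summed ligand CPM per kb in each of the 10 libraries, for 8 ligand genes and the other 19 together. Bmp3 fills 85.2% and 87.8% of the OHC (P22) bars, and Tgfb2, Bmp6, Gdf6 and Inhba fill most of the SC bars.

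The secreted antagonists did not exceed 23.8 CPM in any library. Fst, which binds activins, was at 23.8 CPM in SC library 11 and at most 0.0546 CPM elsewhere. Grem1, a BMP antagonist, was at 7.05 and 6.79 CPM in OHCs (P7), at 0.0882 and 2.86 CPM in OHCs (P22) and at most 0.0762 CPM in the SC, cHC and IHC libraries (joint edgeR adjusted p = 0.118). Chrd, which sequesters BMPs, was at 6.003 CPM in SC library 11, 6.03 and 2.85 CPM in IHCs, 0.0273 CPM in OHC (P7) library 14 and 0 elsewhere. Nog had no count. Fst and Nog were not tested. Neither of the 2 tested antagonists, Chrd and Grem1, passed the edgeR test in any comparison, while both had an unadjusted p under 0.05 and both DESeq2 and limma-voom called Grem1. No share of all tested genes under these rules is given here.

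The receptors were spread over all 5 cell types, and none of the 11 tested receptor genes was called by edgeR in any comparison or in the joint test. With 0.343% to 8.02% of all tested genes called in the comparisons and 7.81% in the joint test, 0 of 11 does not set the receptors apart. Over the 8 comparisons, 4 of them (Acvr1c, Bmpr1a, Tgfbr1 and Tgfbr3) had an unadjusted p under 0.05, limma-voom called 0 and DESeq2 called 3 (Acvr1c, Tgfbr1 and Tgfbr3). The shares of all tested genes under these rules are not given here, so these counts do not set the receptors apart. Bmpr1a, a type I receptor for BMPs, was at 199 and 131 CPM in SCs, 81.0 and 49.0 CPM in cHCs, 119 and 80.7 CPM in OHCs (P7), 75.5 and 19.8 CPM in OHCs (P22) and 119.5 and 148 CPM in IHCs. It was the leading type I receptor per kb in 7 of the 10 libraries. The OHC (P22) value relative to SCs was -1.79 ± 0.71 on the log2 scale (edgeR adjusted p = 0.146), with no overlap of the groups.

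Bmpr1b was at 5.15 and 80.3 CPM in SCs, 12.98 and 30.5 CPM in cHCs, 4.83 and 7.26 CPM in OHCs (P7), 7.32 and 19.4 CPM in OHCs (P22) and 55.5 and 33.6 CPM in IHCs. Acvr1b, an activin receptor, was at 27.01 and 55.6 CPM in SCs, 39.2 and 21.5 CPM in cHCs, 33.4 and 39.9 CPM in OHCs (P7), 0.617 and 67.5 CPM in OHCs (P22) and 78.9 and 3.06 CPM in IHCs. In both genes 1 pair of libraries spanned most of the range, so no cell type stood apart. Tgfbr1, the type I receptor for TGF-beta, lay at 38.1 to 61.4 CPM in SCs and cHCs, at 2.40 to 9.52 CPM in the OHC libraries and at 17.7 to 27.5 CPM in IHCs. These ranges did not overlap, yet the log2 fold change of OHCs (P7) against SCs, -2.79 ± 1.02, had an edgeR adjusted p of 0.179 and that of OHCs (P22), -2.76 ± 1.02, one of 0.122. Acvr1 and Acvr1c were found at 0.133 to 38.1 CPM and 0 to 45.2 CPM, and Acvrl1, known from endothelium, had no count.

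Bmpr2, the type II receptor for BMPs, was at 103 and 41.0 CPM in SCs, 52.0 and 40.1 CPM in cHCs, 133 and 81.3 CPM in OHCs (P7), 111 and 112 CPM in OHCs (P22) and 85.8 and 103 CPM in IHCs (joint edgeR adjusted p = 0.534). Acvr2a, which binds activins and BMPs, was at 19.9 and 67.0 CPM in SCs, 77.3 and 67.9 CPM in cHCs, 124 and 29.0 CPM in OHCs (P7), 159.7 and 104 CPM in OHCs (P22) and 43.0 and 67.7 CPM in IHCs (joint edgeR adjusted p = 0.578). Both OHC (P22) libraries lay above both SC libraries for Acvr2a. Tgfbr3, a co-receptor for TGF-beta2, was at 9.11 and 74.96 CPM in SCs, 12.98 and 19.3 CPM in cHCs, 12.5 and 0.0273 CPM in OHCs (P7), 0 and 0.253 CPM in OHCs (P22) and 24.7 and 4.50 CPM in IHCs. Its OHC (P22) value against SCs did not pass (edgeR adjusted p = 0.0903). Tgfbr2, the type II receptor for TGF-beta, did not exceed 5.64 CPM in any library, and Acvr2b did not exceed 5.88 CPM.

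All 8 Smads had counts and were tested, and edgeR called none, which at these shares of all tested genes does not set the 8 apart either. Over the 8 comparisons, 4 (Smad1, Smad5, Smad7 and Smad9) had an unadjusted p under 0.05, limma-voom called 0 and DESeq2 called these 4. The shares of all tested genes under these rules are not given here, so these counts do not set the Smads apart. Smad4, the shared partner, was at 29.3 and 14.1 CPM in SCs, 40.04 and 31.0 CPM in cHCs, 43.8 and 50.9 CPM in OHCs (P7), 29.4 and 55.3 CPM in OHCs (P22) and 48.9 and 34.4 CPM in IHCs (joint edgeR adjusted p = 0.821). Smad2, of the TGF-beta branch, was at 46.5 and 66.9 CPM in SCs, 56.6 and 25.9 CPM in cHCs, 34.3 and 35.2 CPM in OHCs (P7), 0.0882 and 26.03 CPM in OHCs (P22) and 8.45 and 22.6 CPM in IHCs. The inhibitory Smad7 was at 38.0 and 92.9 CPM in SCs, 13.6 and 23.1 CPM in cHCs, 7.86 and 9.36 CPM in OHCs (P7), 83.8 and 42.6 CPM in OHCs (P22) and 36.3 and 14.0 CPM in IHCs. Smad7 thus was lowest in OHCs (P7) and met the SC range in OHCs (P22), where its log2 difference from OHCs (P7) was 2.88 ± 0.95 (edgeR adjusted p = 0.238).

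The Smads of the BMP branch did not move together. Smad1 was highest in SCs, at 102 and 57.0 CPM, and had its lowest mean in OHCs (P22), at 3.70 and 14.4 CPM, with an IHC pair of 72.6 and 14.8 CPM. Smad5 was low in SCs (2.67 and 13.9 CPM) and high in OHCs (P22) (254.5 and 35.5 CPM), with a log2 fold change of 4.13 ± 1.17 that missed the threshold (edgeR adjusted p = 0.0547). The day 21 library was far above its duplicate, and Smad5 took 55.1% of the Smad transcripts per kb there and 11.5% in the day 22 library. Smad9 did not exceed 8.46 CPM and Smad6 did not exceed 17.0 CPM. Smad3 reached 90.0 CPM in SC library 12 and 95.3 CPM in the IHC library of day 75, with 8.10 and 13.5 CPM in their duplicates.

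**Figure D4:**
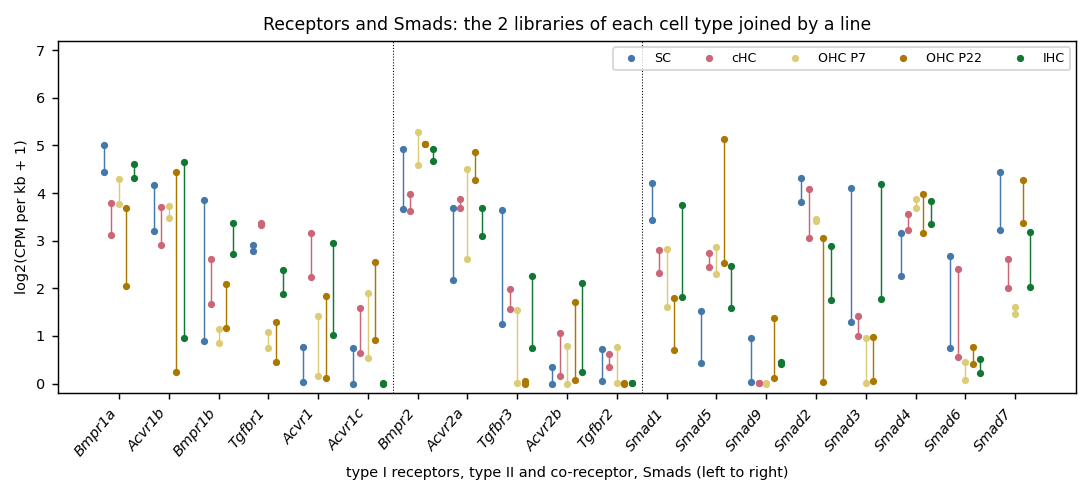
Levels of 19 receptor and Smad genes on a log2(CPM per kb + 1) axis; each point is 1 library, and a line joins the 2 libraries of a cell type. The 2 libraries of a type often lie as far apart as the types do, as for Acvr1b in OHCs (P22), at 0.617 and 67.5 CPM.

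Duplicates differed by more than 1 on the log2(CPM + 1) scale in 22 of the 39 tested members in SCs, 13 in cHCs, 16 in OHCs (P7), 19 in OHCs (P22) and 14 in IHCs. Over all tested genes the shares were 41.9%, 39.8%, 35.0%, 46.4% and 38.2%. In the 39 members, the highest mean level was in SCs for 18 (46.2%, against 24.6% of all tested genes) and the lowest in OHCs (P22) for 15 (38.5%, against 25.0%).

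**Figure D5:**
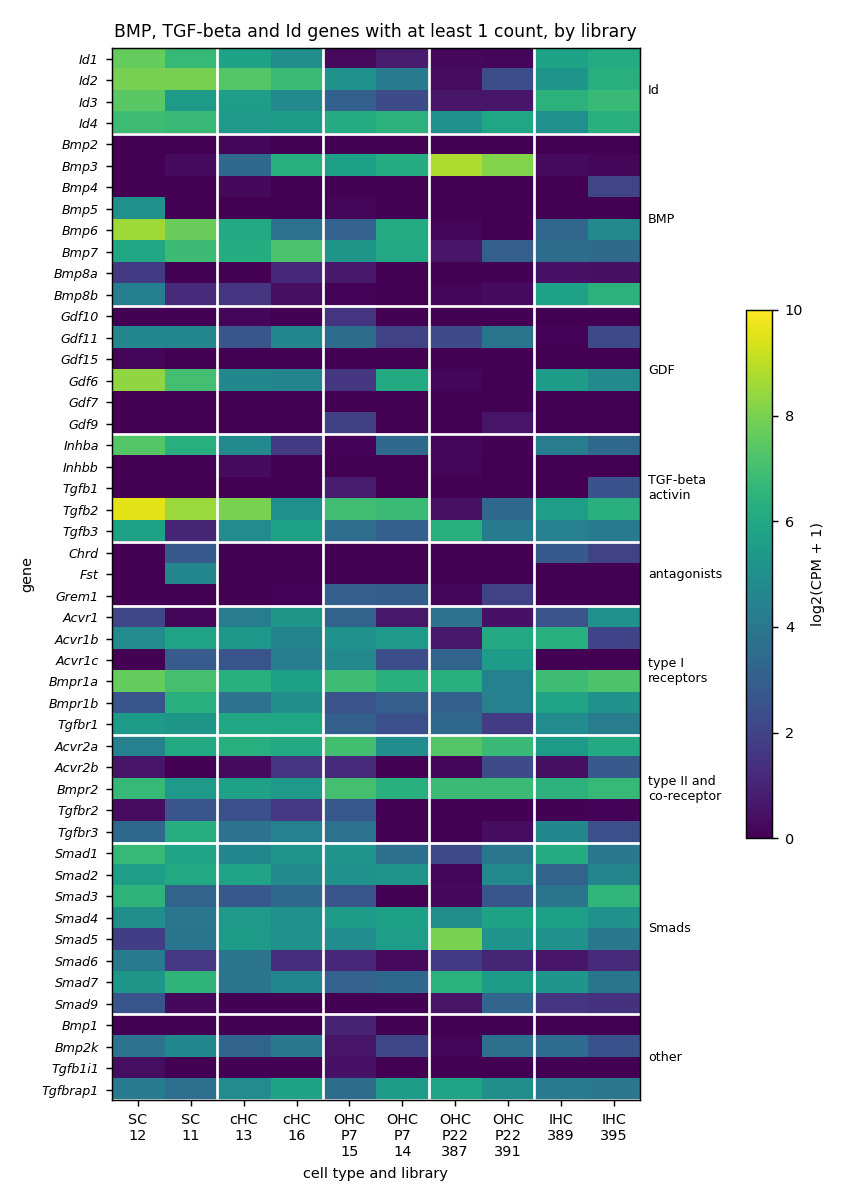
Heat map of the 49 members with counts in the 10 libraries, colored by log2(CPM + 1), with members as rows grouped by role and libraries as columns grouped by cell type. Id1, Id2, Id3, Bmp6, Gdf6, Inhba and Tgfb2 are bright (high) in SCs and dark (low) in OHCs (P22), Bmp3 the reverse, and Bmpr1a, Bmpr2 and Smad4 are present in every library.

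Between IHCs and SCs no member passed the edgeR test, against 2.65% of all tested genes. Of the 39, 4 (Acvr1c, Bmp6, Bmp7 and Tgfb2) had an unadjusted p under 0.05, limma-voom called 2 (Bmp6 and Id2) and DESeq2 called 4. No share of all tested genes under these 3 rules is given here. The IHC libraries held 914 to 1101 CPM of SC markers, beside 1100 to 1780 CPM in SCs, and the part of these in the comparison was not tested.

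The remaining symbols gave no call by edgeR, limma-voom or DESeq2, and none at an unadjusted p under 0.05. Tgfbrap1, an adaptor that binds TGF-beta receptors, was at 16.1 and 11.5 CPM in SCs, 26.98 and 53.6 CPM in cHCs, 10.7 and 43.4 CPM in OHCs (P7), 55.8 and 30.4 CPM in OHCs (P22) and 16.5 and 14.7 CPM in IHCs. Bmp2k was at 13.1 and 24.3 CPM in SCs, 8.34 and 15.4 CPM in cHCs, 0.470 and 3.38 CPM in OHCs (P7), 0.0882 and 11.9 CPM in OHCs (P22) and 10.4 and 4.81 CPM in IHCs. Bmp1, a protease that processes procollagen and frees BMPs from Chrd, did not exceed 0.940 CPM, and Tgfb1i1 did not exceed 0.403 CPM. Members lie on 18 chromosomes, with 10 pairs within 1 Mb of each other, and none of these pairs held more than 1 called gene.

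Other genes of the pathway were drawn from 5 lists with 91 genes in all, of which 70 were tested. The share of all tested genes called against SCs was 1.84% in cHCs, 3.41% in OHCs (P7), 8.02% in OHCs (P22) and 2.65% in IHCs. Among extracellular modulators, 1 of 20 tested genes rose in cHCs against SCs, 1 in OHCs (P7) and 1 in IHCs, in each case Kcp, a secreted protein that modulates BMP and TGF-beta binding. Kcp was at 6.57 and 2.07 CPM in SCs, 102 and 138 CPM in cHCs, 324 and 595 CPM in OHCs (P7), 1024 and 447 CPM in OHCs (P22) and 324.5 and 232.5 CPM in IHCs. Every HC library lay above both SC libraries. Its log2 fold changes against SCs were 4.80 ± 0.74 in cHCs (edgeR adjusted p = 0.00608), 6.74 ± 0.81 in OHCs (P7) (edgeR adjusted p = 0.000883), 7.41 ± 0.83 in OHCs (P22) (edgeR adjusted p = 0.000425) and 6.01 ± 0.78 in IHCs (edgeR adjusted p = 0.00175).

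In OHCs (P22) against SCs, 2 extracellular modulators were called, Kcp higher and Crim1 lower. Crim1, a membrane protein that tethers BMPs, was at 78.7 and 84.8 CPM in SCs, 244 and 141 CPM in cHCs, 114 and 89.4 CPM in OHCs (P7), 0.353 and 0.295 CPM in OHCs (P22) and 179.5 and 75.3 CPM in IHCs. OHCs (P22) alone were low. The log2 fold change was -7.98 ± 0.85 against SCs (edgeR adjusted p = 0.000284) and -9.21 ± 0.89 against cHCs (edgeR adjusted p = 0.000845). It was -8.29 ± 0.86 against OHCs (P7) (edgeR adjusted p = 0.00345), and IHCs exceeded OHCs (P22) by 8.62 ± 0.87 (edgeR adjusted p = 0.00121). Between the OHC ages limma-voom called 0 extracellular modulators, so the Crim1 call was lost there, and DESeq2 called 1. Cer1, a BMP and Nodal antagonist, was at 9.40 and 50.2 CPM in cHCs and at most 0.0797 CPM elsewhere, and Bmper at 234 and 42.7 CPM in IHCs and at most 16.5 CPM elsewhere. Both passed the joint test (edgeR adjusted p = 0.0223 and 0.0107).

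Among E proteins and bHLH partners (11 tested of 13), 3 fell in OHCs (P7) and 3 in OHCs (P22) against SCs, in each case Hes1, Hey1 and Hey2, repressors known as targets of Notch. Hey1 was at 537 and 359 CPM in SCs, 60.0 and 50.8 CPM in cHCs, 3.89 and 3.30 CPM in OHCs (P7), 1.15 and 1.14 CPM in OHCs (P22) and 2.49 and 40.5 CPM in IHCs. SC, cHC and OHC levels lay in that order without overlap, with log2 fold changes of -6.96 ± 1.20 in OHCs (P7) (edgeR adjusted p = 0.00920) and -8.61 ± 1.29 in OHCs (P22) (edgeR adjusted p = 0.00240). Atoh1 itself was at 364 and 1812 CPM in cHCs, which carry the transgene, and at most 6.44 CPM elsewhere. Hes1 and Hey2 were higher in IHCs than in OHCs (P22) (edgeR adjusted p = 0.0453 and 0.0359). Hes1 is also 1 of the 8 SC markers.

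Among known Smad targets outside the Id genes (11 tested of 16), 4 were called in OHCs (P22) against SCs, with Cdkn1a, Ctgf and Pmepa1 lower and Zeb1 higher. Cdkn1a, a cell cycle inhibitor, was at 120 and 222 CPM in SCs, 122.5 and 90.4 CPM in cHCs, 48.9 and 142 CPM in OHCs (P7), 4.67 and 2.15 CPM in OHCs (P22) and 61.2 and 28.3 CPM in IHCs. It fell by 5.66 ± 0.91 on the log2 scale relative to SCs (edgeR adjusted p = 0.00386). Pmepa1, which dampens TGF-beta signaling, was at 30.3 and 38.3 CPM in SCs, 0.353 and 0.126 CPM in OHCs (P22) and 97.1 and 27.7 CPM in IHCs. The extracellular matrix gene Tnc rose in cHCs, at 1013 and 1617 CPM against 0.800 and 1.43 CPM in SCs (edgeR adjusted p = 0.0216), and in OHCs (P7), at 194 and 166 CPM (edgeR adjusted p = 0.0425). In the mature HCs it was low, at 0 and 10.2 CPM in OHCs (P22) and at 0 CPM in both IHC libraries.

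Among co-receptors (8 tested of 10), Rgma and Neo1, a BMP co-receptor and its partner, fell from SCs to OHCs (P22) (edgeR adjusted p = 0.0208 and 0.0328). Neo1 was at 78.1 and 114 CPM in SCs, 14.99 and 18.9 CPM in OHCs (P22) and 152 and 158 CPM in IHCs. Of 20 intracellular regulators, all tested, 3 were called in OHCs (P22) against SCs, Nedd4l and Tgif1 lower and Smurf1 higher. Nedd4l, a ubiquitin ligase for Smads, was at 229 and 310.5 CPM in SCs, 208 and 178 CPM in cHCs, 47.2 and 21.6 CPM in OHCs (P7), 1.41 and 14.2 CPM in OHCs (P22) and 40.2 and 39.5 CPM in IHCs (edgeR adjusted p = 0.0110). Over the 5 lists, 3 of 70 tested genes were called in cHCs against SCs, 7 in OHCs (P7), 14 in OHCs (P22) and 2 in IHCs, to be read against the shares given above. Between OHCs (P22) and cHCs 9 were called (3.18% of all tested genes), between the OHC ages 2 (0.551%) and between IHCs and OHCs (P22) 5 (1.46%). Between OHCs (P7) and cHCs edgeR called 0 (0.343%), with 19 at an unadjusted p under 0.05, limma-voom called 4 and DESeq2 called 11. The shares of all tested genes are given for edgeR alone, so the other counts are a description.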

How the data were processed

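RNA from handpicked cells of 5 cochlear cell types, 2 libraries each, was amplified by single primer isothermal amplification. The authors deposited 1 table of raw read counts per gene symbol for each library. Reads were processed with CASAVA 1.7, Cutadapt, STAR and BWA against mm9, and counted with HTSeq, per the labels and the study's methods. Between 44.2% and 72.1% of reads in these tables were not assigned to a gene and were left out. Amplification duplicates molecules, so counts are not independent molecules. 4 records carry the table of another library, and tables were assigned by the title they bear.

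Counts were TMM-scaled (0.583 to 1.20) and filtered with filterByExpr (16891 genes kept), and 1 model of all 10 libraries was fitted with edgeR 4.0.16 (quasi-likelihood test, R 4.3.3), because 2 libraries per cell type give little information on spread alone. 8 comparisons and 1 joint test over the 5 cell types were made, 2-sided, with Benjamini-Hochberg adjustment over all tested genes and a threshold of 0.05. An exact permutation test of 2 libraries against 2 cannot go below 0.333 and was not used. Levels per kb used exon lengths of the mm9 annotation. Scripts were tested on simulated counts. Alternatives were DESeq2 1.42.0, limma-voom (limma 3.58.1, the study's method), other filters, tables as attached, 2 cell types only, the title form as a term, leaving out each library, and library size without TMM, which was chosen after seeing the data. Members are all symbols of the pattern. Values in every library are given for each member past the threshold in the joint test or any comparison and for the 3 members of each role with the highest mean per kb, and other pathway genes are named at an adjusted p under 0.05, at most 6 per comparison. Bmper, Cer1, Ctgf, Smurf1 and Tgif1 fall outside this and were chosen after their values were seen. Members and lists were chosen with earlier results of these data known.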

Additional observations from a re-analysis of the deposited data

How the results depend on the processing

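The numbers of members called were recomputed under each alternative, and no call changed direction. The shares of all genes called under the alternatives are not given here, so the numbers are a description. DESeq2 called 15 in the joint test, 9 in OHCs (P7) and 14 in OHCs (P22) against SCs, 4 in IHCs against SCs, 4 and 12 in OHCs (P7) and OHCs (P22) against cHCs, 10 between the OHC ages and 11 between IHCs and OHCs (P22). Limma-voom called 2 in cHCs and 2 in IHCs against SCs, 0 in OHCs (P7) against cHCs, 0 between the OHC ages and 3 between IHCs and OHCs (P22). Without a filter on low counts the numbers were 17 (joint), 3, 8, 14 and 2 (cHCs, OHCs (P7), OHCs (P22) and IHCs against SCs), 10 (OHCs (P22) against cHCs), 7 (between OHC ages) and 11 (IHCs against OHCs (P22)). With at least 10 counts in every library, which drops the genes at or near 0 in 1 cell type, they were 1 in the joint test, 1 in OHCs (P22) against SCs, 1 against cHCs, and 0 in the other comparisons. With the tables as attached to the records they were 0 throughout. With only the 2 cell types compared, they were 0 in cHCs against SCs, 1 in IHCs against SCs, 0 and 1 in OHCs (P7) and OHCs (P22) against cHCs, and 0 between the OHC ages. The title form as a term gave 0 in OHCs (P7) against cHCs, and library size without TMM gave 2 between the OHC ages. Where no construction shows it, the cause was not tested.

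Leaving out 1 library at a time gave 8 to 10 members in the joint test, 1 to 1 in cHCs, 2 to 4 in OHCs (P7), 7 to 11 in OHCs (P22) and 0 to 1 in IHCs against SCs. It gave 0 to 1 in OHCs (P7) and 3 to 8 in OHCs (P22) against cHCs, 0 to 4 between the OHC ages and 2 to 8 between IHCs and OHCs (P22). The low ends of the OHC (P22) comparisons (7, 3, 0 and 2) came without the day 21 library. The high ends 11, 8 and 8 came without either OHC (P7) library, the 8 against cHCs also without the day 75 IHC library, and the 4 between OHC ages without the day 22 library. Over single calls in the settings other than leave-one-out, 106 of 130 values kept their side of the threshold. This count leaves out the tables as attached, where every call was lost. Without TMM, the median of all genes shifted by 0.31 (cHCs against SCs), 0.18 (IHCs against SCs), -0.27 (OHCs (P7) against cHCs), -0.39 (OHCs (P22) against cHCs), -0.12 (OHC ages) and 0.26 (IHCs against OHCs (P22)) on the log2 scale, and with DESeq2 by 0.14 (OHC ages) and -0.11 (IHCs against OHCs (P22)). Over the other pathway lists, DESeq2 called 12, 18, 25 and 13 genes in cHCs, OHCs (P7), OHCs (P22) and IHCs against SCs, where edgeR called 3, 7, 14 and 2, and limma-voom 8, 10, 16 and 7. The libraries share no replicate numbers between cell types. The title form, entered as a block in SCs, cHCs and OHCs (P7), gave 1 member called in cHCs and 3 in OHCs (P7) against SCs. The latter number equals that of the main fit, but Id3 was no longer among them (edgeR adjusted p = 0.0522).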
